A study of Mus musculus with 4 samples.

Results

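Kupffer cell identity genes are transcripts by which the resident macrophages of the liver sinusoid are recognised. They were described in whole-liver RNA from male C57BL/6J mice aged 18 weeks that had received the FAT-MASH diet and resolvin D1 (RvD1), a lipid mediator of the resolution of inflammation. The diet induces MASH, metabolic dysfunction-associated steatohepatitis. The 10 genes were chosen by symbol from 24138 rows of the deposited expression table, and each symbol had 1 row: Clec4f, Vsig4, Timd4, Marco, Cd5l, Folr2, Spic, Id3, Cd163 and Adgre1. The 4 livers form 1 group in which every animal had both the diet and RvD1. No diet-only or untreated livers were analysed here, so the values describe levels and their spread between livers and carry no effect of either agent. The values were taken to be FPKM, fragments scaled by transcript length and by the number mapped, a scale on which levels of different genes can be set side by side. The labels number the livers but do not say whether they came from 1 experiment, and the spread below is that between these 4 samples.

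Kupffer cells line the sinusoids, where they clear bacteria, complement-coated particles, ageing red cells and apoptotic cells from portal blood. Their identity is known to depend on signals from neighbouring endothelial, stellate and hepatocyte cells, among them Notch ligands, TGF-beta family ligands and colony stimulating factor, and on transcription factors such as PU.1, LXR-alpha, Spi-C and Id3. In steatohepatitis, resident cells can be lost and replaced by monocyte-derived macrophages, which take up much of the same programme, including Clec4f, while Timd4 is acquired late. All of this is background and not a result of these data.

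The estimated depth was between 18.8 and 20.1 M fragments per liver (M, mega), and the 10541 genes averaging 1 FPKM or more are called expressed below. Of the hepatocyte markers Alb, Apoa1, Ttr, Fabp1, Cyp2e1 and Cps1, 5 of 6 were abundant in every liver, the lowest value being 449.9 FPKM for Cps1 in liver 2, and Alb was listed at 0 in all 4, which shows that a 0 in the table can be a failed estimate. All 10 Kupffer cell genes were above 0 in every liver. The samples are bulk tissue, in which fewer Kupffer cells and less RNA per Kupffer cell cannot be told apart.

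The stretches upstream of 4 members are shown because they hold the letters TGCTGA, the core of the sites bound by MAF proteins, which were the motif found in the most members beside the E-box. They were read from RefSeq windows on GRCm38.p6 that run from 250 bases before to 50 bases after a start site. Of the 10 members, 9 had a window, and Adgre1 is named only. Capitals mark TGCTGA on either strand (TCAGCA on the other), and each sequence is given 5′ to 3′ on the strand of its gene. The stretch of Clec4f is chr6:83656247-83656366 (minus strand, 250 to 131 bases before the start) and that of Cd5l is chr3:87357761-87357880 (plus strand, 120 to 1 bases before the start). That of Timd4 is chr11:46810629-46810798 (plus strand, 170 to 1 bases before the start) and that of Spic is chr10:88683154-88683273 (minus strand, 250 to 131 bases before the start).
Clec4f: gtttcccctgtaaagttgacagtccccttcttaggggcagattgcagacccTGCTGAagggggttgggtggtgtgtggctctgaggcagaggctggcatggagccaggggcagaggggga
Cd5l: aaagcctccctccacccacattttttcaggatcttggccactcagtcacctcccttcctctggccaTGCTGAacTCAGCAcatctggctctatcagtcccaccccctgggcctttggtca
Timd4: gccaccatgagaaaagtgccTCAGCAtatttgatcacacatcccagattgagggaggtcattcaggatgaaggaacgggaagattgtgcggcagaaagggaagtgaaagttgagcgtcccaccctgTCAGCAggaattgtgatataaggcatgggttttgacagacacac
Spic: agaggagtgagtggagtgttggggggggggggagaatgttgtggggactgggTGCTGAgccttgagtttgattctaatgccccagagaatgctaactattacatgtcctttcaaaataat

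TGCTGA was present in the windows of 6 of 9 members (Clec4f, Vsig4, Timd4, Cd5l, Folr2 and Spic) and in 19.5% of all 32851 windows. In Cd5l the letters occur on both strands with 2 bases between them, at 54 and 46 bases before the start, and form the inverted pair TGCTGANNTCAGCA. That pair was present in 2 of the 32851 windows, of which Cd5l is 1, and the pair with 1 base between (TGCTGANTCAGCA) was likewise in 2 windows, neither of a member. These paired forms were searched for after the Cd5l sequence had been seen. GAGGAA, the core bound by PU.1 and Spi-C, was present in 4 of 9 members (Vsig4, Marco, Cd5l and Id3) against 28.3% of all windows. TGGGAA, the RBPJ core through which Notch acts, was in Clec4f and Marco (25.6% of all windows). AGGTCA, a nuclear receptor core, was in Clec4f and Timd4 (16.3% of all windows). The SMAD-type letters GTCTAGAC, GGCGCC and GTCTGG were in none of the 9 (0.213%, 11.9% and 17.9% of all windows), the E-box CANNTG was in 6 (72.3%) and TATAA in 2 (24.9%). The 9 letter strings were searched on both strands, and TGCTGA overlapped another of them only in Folr2, where it overlapped an E-box in each of its windows. A match describes the letters and not a bound site.

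The 10 genes ranged from abundant to barely detected, and fell into 3 tiers. Id3 and Cd5l were the highest. Clec4f, Vsig4, Adgre1 and Folr2 were intermediate, and Spic, Marco, Cd163 and Timd4 had means below 1 FPKM. In all, 6 members were expressed, so counts and medians over them leave out the 4 low members, which are given by their own values.

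**Figure D1:**
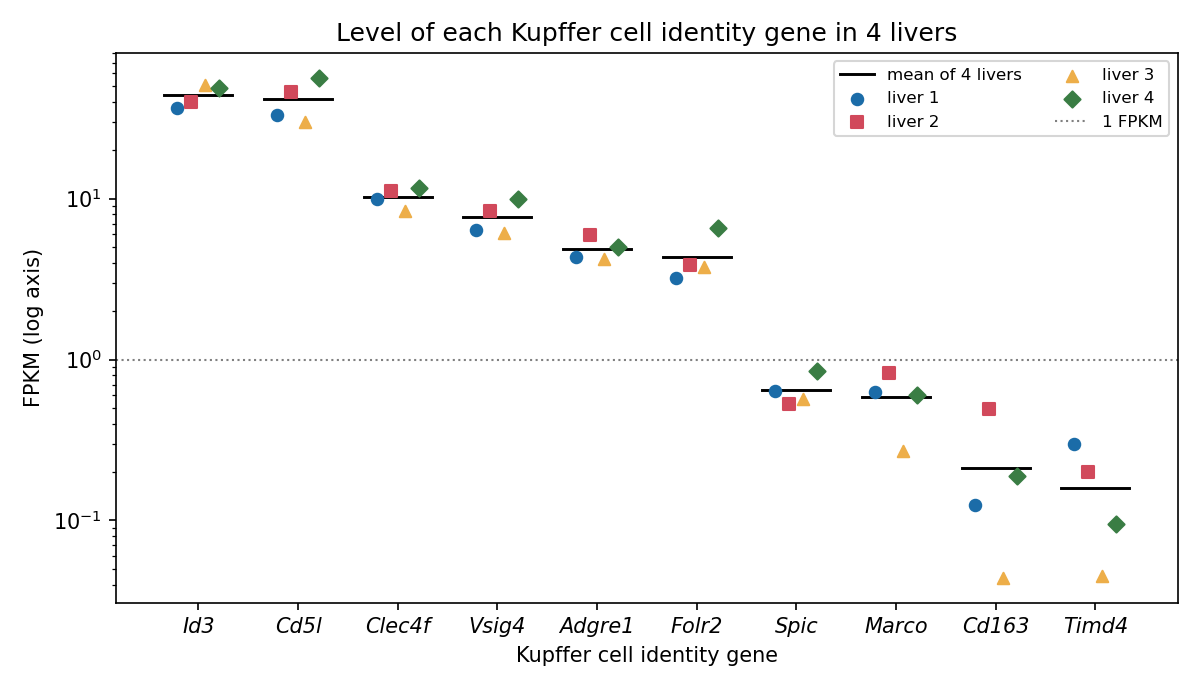
Level of the 10 Kupffer cell identity genes in FPKM (log axis), with 1 point for each of the 4 livers and a bar at their mean. The dotted line marks 1 FPKM; Id3 and Cd5l lie above 29.7 FPKM in every liver, and Spic, Marco, Cd163 and Timd4 lie below 1 FPKM in every liver.

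Among the recognition receptors, Clec4f encodes a C-type lectin that in the mouse is largely restricted to Kupffer cells. Clec4f (XLOC_017956, chromosome 6, 83644542 to 83656116) was at 10.001, 11.1, 8.39 and 11.7 FPKM in livers 1 to 4, a mean of 10.3 ± 1.47 FPKM (SD, n = 4). Livers 4 and 2 were the highest and liver 3 the lowest, a 1.398-fold range, so that it was among the members with the least spread. With each library scaled to the same total, liver 2 was the highest (11.4 FPKM) and liver 4 second (10.96 FPKM).

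Vsig4 encodes the complement receptor CRIg, which binds C3 fragments on particles in the blood. Vsig4 (chromosome X, 96247203 to 96293438) was at 6.38, 8.34, 6.13 and 9.94 FPKM in livers 1 to 4, a mean of 7.70 ± 1.79 FPKM (SD, n = 4). As for Clec4f, livers 2 and 4 were above livers 1 and 3. The complement gene C3 itself, a hepatocyte product, was at 967, 1461, 1061 and 1207 FPKM. C3 was likewise lowest in liver 1 and liver 3, but it was highest in liver 2 where Vsig4 was highest in liver 4.

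Adgre1 encodes an adhesion receptor carried by most mouse macrophages. Adgre1 (chromosome 17, 57358686 to 57483529) was at 4.36, 5.97, 4.20 and 5.04 FPKM, a mean of 4.89 ± 0.805 FPKM (SD, n = 4). Liver 2 was the highest and liver 3 the lowest. Folr2 encodes folate receptor beta of tissue-resident macrophages. Folr2 (chromosome 7, 101839988 to 101857190) was at 3.23, 3.85, 3.77 and 6.59 FPKM, a mean of 4.36 ± 1.51 FPKM (SD, n = 4). Liver 4 stood above the other 3, which lay within 1.19-fold of each other. Without liver 4 the range of Folr2 was thus 1.19-fold against 2.04-fold with it. RefSeq gives Folr2 start sites 11859 bases apart, and the deposited value does not separate them.

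Cd5l encodes a secreted scavenger-type protein that travels with IgM and is a known target of LXR. Cd5l (XLOC_013257, chromosome 3, 87357881 to 87371074) was at 33.3, 46.2, 29.8 and 56.2 FPKM in livers 1 to 4, a mean of 41.4 ± 12.2 FPKM (SD, n = 4). It was the most variable of the 6 expressed members, with an SD of 0.41 on the log2(FPKM + 1) scale, and 96.9% of expressed genes had a smaller SD. At an estimated 1067 to 1944 fragments per liver, counting error was at most 3.06% of the value. Livers 2 and 4 were again above livers 1 and 3.

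The nuclear factor Id3 blocks DNA binding by E proteins. It is needed for Kupffer cell development and is also expressed by endothelial and other cells, so its bulk level is not that of Kupffer cells alone. Id3 (chromosome 4, 136143822 to 136145392) was at 36.3, 40.05, 51.0 and 49.03 FPKM, a mean of 44.1 ± 7.04 FPKM (SD, n = 4). It differed from the receptor genes in order, with liver 3 the highest and liver 1 the lowest. Its E-protein partners Tcf3, Tcf4 and Tcf12 had means of 5.56, 2.30 and 4.42 FPKM. Of these Tcf3 was highest in liver 3 (6.75 FPKM), and Tcf4 and Tcf12 were highest in liver 2.

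The remaining 4 members were low. Spic encodes Spi-C, an ETS-family factor induced by haem in iron-recycling macrophages. Spic (chromosome 10, 88675270 to 88683023) was at 0.634, 0.528, 0.570 and 0.846 FPKM, or about 15.9 to 24.9 fragments. Liver 4 was the highest, and the other 3 livers differed by less than the counting error of 22.4% to 25.1% in each.

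Marco encodes a class A scavenger receptor for bacteria, carried by a subset of Kupffer cells. Marco (chromosome 1, 120474538 to 120505084) was at 0.631, 0.824, 0.271 and 0.5998 FPKM, about 21.9, 27.5, 9.12 and 19.5 fragments. Liver 3 was the lowest, and without it the 3.05-fold range of Marco was 1.37-fold.

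Cd163 encodes the receptor for haemoglobin bound to haptoglobin. Cd163 (chromosome 6, 124304651 to 124330527) was at 0.124, 0.492, 0.0442 and 0.188 FPKM, about 10.6, 40.4, 3.66 and 15.0 fragments. Its 11.1-fold range was the widest of the 10 members. It rested on livers 2 and 3, since the range was 4.25-fold without liver 2 and 3.97-fold without liver 3. Haptoglobin itself (Hp, a hepatocyte product) was at 2059, 3598, 1634 and 2454 FPKM, and was also highest in liver 2 and lowest in liver 3. Haem oxygenase 1 (Hmox1), which degrades the haem taken up, was at 8.503 FPKM in liver 3, against 12.1 to 12.5 FPKM elsewhere.

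Timd4 encodes a receptor for phosphatidylserine on apoptotic cells and marks long-lived Kupffer cells. Timd4 (XLOC_002604, chromosome 11, 46810799 to 46844333) was at 0.297, 0.200, 0.0450 and 0.0947 FPKM in livers 1 to 4, the lowest mean of the 10 members. These values correspond to about 11.8, 7.62, 1.73 and 3.52 fragments, with a counting error from 29.1% in liver 1 to 75.9% in liver 3. It was the only member with its highest value in liver 1. Its 6.60-fold range was 3.14-fold without liver 3.

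In the order of the means, Id3 was followed by Cd5l, Clec4f, Vsig4, Adgre1, Folr2, Spic, Marco, Cd163 and Timd4. The ranges over the 4 livers did not overlap in 3 of the 9 neighbouring pairs: Cd5l was above Clec4f (4.01-fold in the means), Vsig4 above Adgre1 (1.57-fold) and Folr2 above Spic (6.76-fold). Vsig4 and Adgre1 were barely apart, at 6.13 FPKM for the lowest Vsig4 and 5.97 FPKM for the highest Adgre1. Clec4f was above Vsig4, and Marco above Cd163, within each of the 4 livers although the ranges overlapped. The order of Id3 and Cd5l, and that of Cd163 and Timd4, held in 2 livers and was the opposite in the other 2. Without liver 3, or without liver 4, the ranges were apart in 5 of the 9 pairs. An exact two-sided permutation of signs over 4 livers cannot give a p below 0.125, so no order was tested.

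The 6 expressed members were compared between livers as deviations from their own means on the log2(FPKM + 1) scale. All 6 were above their mean in liver 4, as were 60.8% of expressed genes, and 0 of 6 were above it in liver 1 (47.2% of expressed genes). In liver 2, 4 of 6 were above their mean (45.1% of expressed genes), and in liver 3 only Id3 was (47% of expressed genes). The median deviation of the 6 was -0.24, 0.12, -0.21 and 0.27 in livers 1 to 4, and that of all expressed genes was -0.01, -0.02, -0.01 and 0.04. Over all 10 members, whose 4 low genes have compressed deviations on this scale, the median was -0.11, 0.12, -0.19 and 0.17. Scaling the libraries to the same total lowered the median in liver 4 to 0.18, with 5 of 6 above their mean there and 38.1% of expressed genes. Liver 4 also has the largest summed FPKM, at 1.07 times the mean of the 4.

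**Figure D2:**
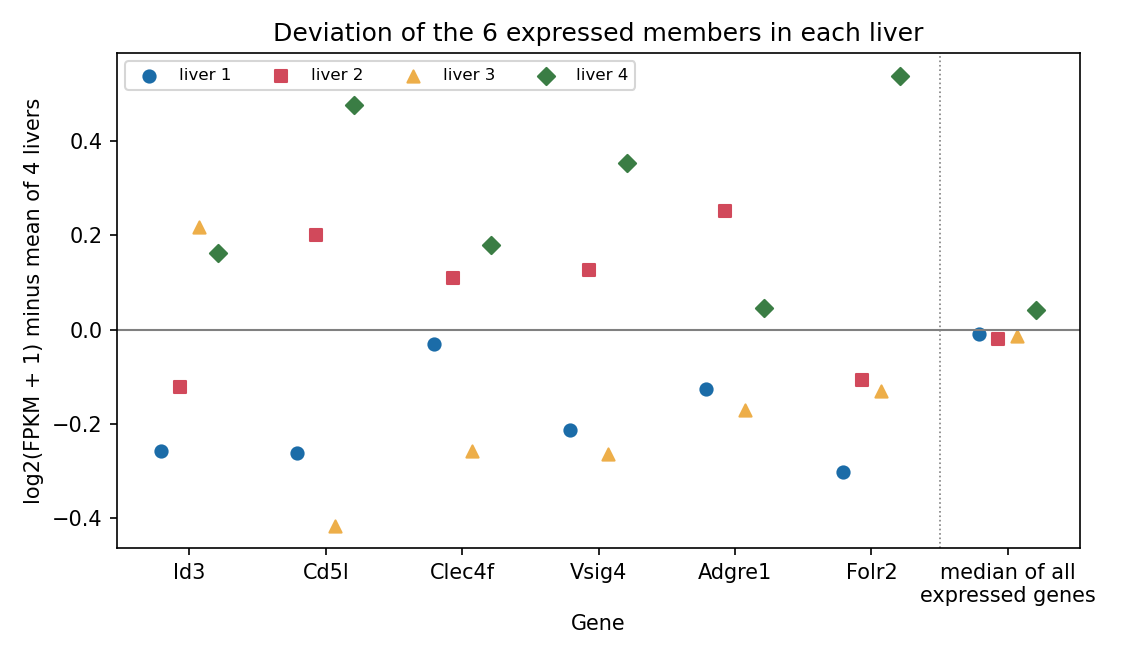
Deviation of each of the 6 expressed members in each liver, as log2(FPKM + 1) minus the mean of the 4 livers, beside the median of 10541 expressed genes. Liver 4 is above 0 for every one of the 6 genes and liver 1 below 0, while Id3 is the only gene with liver 3 above 0.

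Liver 4 was the highest for 4 of the 6 expressed members (33.3% of expressed genes), or 3 of 6 with equal totals (15.6%). Liver 3 was the lowest for 4 of 6 (31.4% of expressed genes). Over all 10 members liver 3 was the lowest for 7, against 29.4% of the 14015 genes above 0 in every liver, and this count was 7 under both scalings. The 3 others were Folr2 and Id3, lowest in liver 1, and Spic, lowest in liver 2. No member had a liver set apart from the rest by Dixon's gap test at the 95% level. This was 0 of the 6 expressed members, against 5.46% of expressed genes, and 0 of all 10, against 5.64% of genes above 0 in every liver. The closest was Folr2 in liver 4, with a ratio of 0.77.

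Spread between livers was wider in some members than in others. The median SD of the 6 expressed members was 0.26 on the log2 scale, beside 0.16 for all expressed genes. Such a spread was not particular to the members. Among lists described below, it was 0.27 for the pan-macrophage and the hepatocyte genes. For the sinusoidal endothelial and the other Kupffer genes it was 0.25. It was lower for the lipid-associated macrophage genes (0.19) and the transcription factors (0.17). Cd5l (0.41), Folr2 (0.37) and Vsig4 (0.29) had a larger SD than 96.9%, 95.4% and 89.1% of expressed genes. Id3 (0.23), Clec4f (0.19) and Adgre1 (0.19) exceeded 76.1%, 64.3% and 63.6%.

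Profiles were set side by side by the root mean square difference of their deviations over the 4 livers. Vsig4 and Cd5l were each other's closest member (0.11 on the log2 scale), and Adgre1 was closest to Cd163 (0.05), a low gene whose deviations are compressed on this scale. Id3 had no member closer than Spic (0.19), and Timd4 and Folr2 were the furthest apart of the 45 pairs (0.40). The 5 genes outside the members closest to Clec4f were Nadk2 (0.01), Slc16a12 (0.01), Erbb2ip (0.01), Ndufaf1 (0.02) and Pdk1 (0.02). Those closest to the median profile were Rabac1 (0.02), Rab3d (0.03), Mrps33 (0.03), Crip1 (0.03) and Riok3 (0.03). With 4 livers such likeness is common: 945 of the 6528 genes averaging 5 FPKM or more were within 0.1 of Clec4f, and 304 were within 0.1 of the median profile.

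The summed level of the 10 members was 95.3, 118, 104 and 140.3 FPKM in livers 1 to 4, of which Id3 and Cd5l made up 73.1% to 77.5%. Without Id3 the sum was 58.9, 77.5, 53.2 and 91.2 FPKM, and liver 3 rather than liver 1 was the lowest. The sum of 11 pan-macrophage genes, among them Cd68, Lyz2 and the C1q genes, was 327, 462, 331 and 424 FPKM. The members' sum was therefore 0.292, 0.255, 0.315 and 0.331 of the pan-macrophage sum, a ratio that does not depend on library scaling. Without Id3 it was 0.180, 0.168, 0.160 and 0.215. Liver 4 had the highest ratio in either form.

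Ratios to Clec4f were taken within each liver, where library scaling cancels. Trem2, the receptor of lipid-associated macrophages, was at 0.957, 0.909, 0.932 and 0.887 times Clec4f in livers 1 to 4, a mean of 0.921 ± 0.0302 (SD, n = 4) and a 1.08-fold range. Trem2 was the steadiest of the 8 lipid-associated macrophage genes in this ratio, and was singled out after its values were seen. The other 7 varied between 1.25-fold (Lpl) and 2.01-fold (Cd63), with Gpnmb at 1.54 to 2.18 times Clec4f (1.42-fold). A ratio to Clec4f that varied no more than that of Trem2 was found for 86 of 10524 expressed genes (0.817%). Adgre1 was at 0.430 to 0.537 times Clec4f (1.25-fold), Vsig4 at 0.638 to 0.847 (1.33-fold) and Cd5l at 3.33 to 4.79 (1.44-fold). Id3 was at 6.08 times Clec4f in liver 3 and between 3.60 and 4.18 in the other livers. Timd4 was at 0.0297, 0.0180, 0.00537 and 0.00808 times Clec4f, the first value resting on about 11.8 fragments and the others on fewer.

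**Figure D3:**
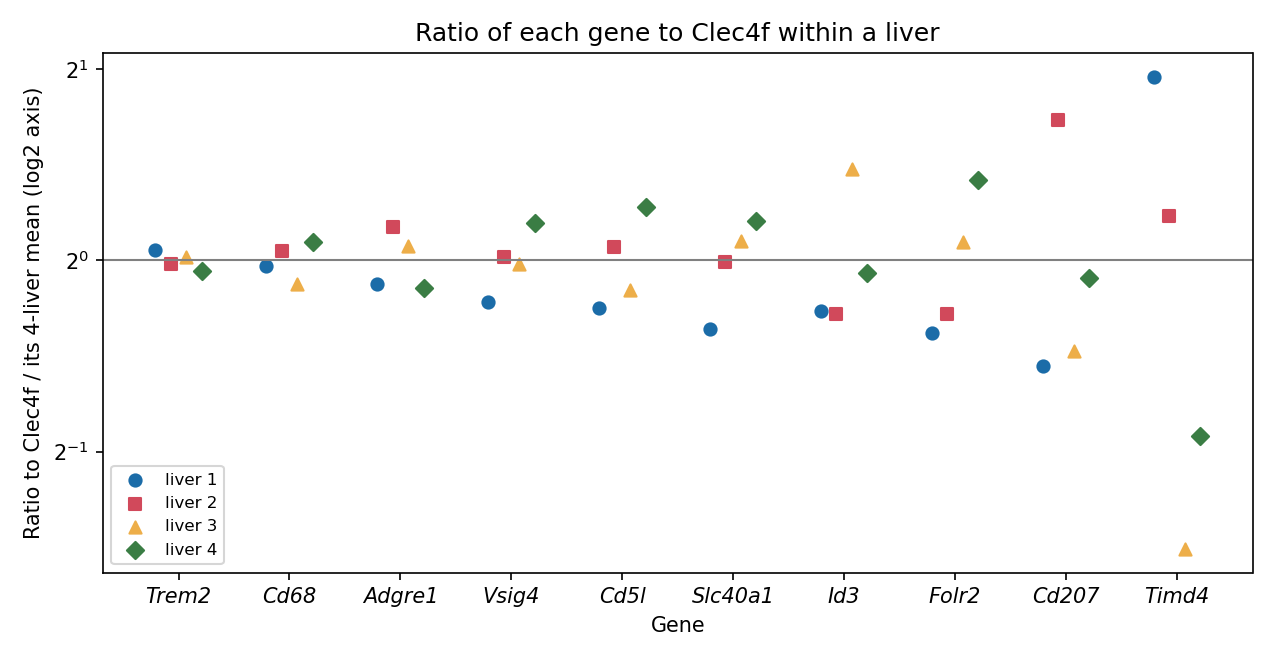
Ratio of 10 genes to Clec4f within a liver, each divided by the mean of the 4 ratios (log2 axis), with 1 point per liver. Trem2 varies 1.08-fold over the livers, Cd207 2.43-fold and Timd4 5.54-fold.

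Among 9 other genes linked to Kupffer cells, 8 were expressed and Kcna2 was not (0.129 FPKM). Their median deviation was -0.17, 0.17, -0.13 and 0.07 in livers 1 to 4, and 2, 6, 2 and 7 of the 8 were above their mean, against 47.2%, 45.1%, 47% and 60.8% of expressed genes. Slc40a1, the iron exporter ferroportin, was at 25.5, 36.2, 29.5 and 44.3 FPKM and Clec1b, a lectin-like receptor, at 5.56, 8.10, 4.29 and 7.16 FPKM. Livers 2 and 4 were both above livers 1 and 3 in these and in Pilra, Il18bp and Cd207, 5 of the 8, as in 5 of the 6 expressed members and 22.2% of expressed genes. With equal totals these were 4 of the 8, without Il18bp, 5 of the 6 and 14.7%. As deposited, the same pattern was present outside the Kupffer lists, as in the sinusoidal endothelial genes Lyve1, Kdr and Pecam1. It was also present in the pan-macrophage genes Cd68, Lyz2 and C1qa and in the hepatocyte products C3 and Hp. It was absent in Stab1, Oit3, Csf1r and Mrc1. Of the 8 Kupffer-linked genes, the other 3 had other orders. Among them were Fcna, a ficolin gene, at 7.96, 6.41, 5.25 and 6.89 FPKM and Cdh5, the vascular endothelial (VE) cadherin gene, at 2.97, 4.61, 4.77 and 3.25 FPKM. Cd207, the C-type lectin langerin, is separated from Clec4f by 15090 bases on chromosome 6 and was at 2.19, 5.92, 1.94 and 3.52 FPKM. It was likewise lowest in livers 1 and 3, but its ratio to Clec4f was 0.532 in liver 2 and between 0.219 and 0.300 in the other livers. C6, a complement gene also made by hepatocytes, was at 65.8, 59.0, 69.6 and 65.7 FPKM.

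Of the transcription factors linked to Kupffer cells, 8 outside the members were examined, and they had no order in common. All 8 were expressed, and 4 of the 8 were highest in liver 3 (Nr1h3, Spi1, Irf8 and Id1), where 26.8% of expressed genes were highest. Id3 shared that liver as its highest, while 4 of the other 5 expressed members had their lowest value there. Spi1, which encodes PU.1, was at 6.96, 9.07, 11.4 and 9.66 FPKM. Nr1h3, which encodes LXR-alpha and is also expressed by hepatocytes, was at 49.8, 46.3, 59.8 and 52.4 FPKM. Maf, Rbpj and Zeb2 were highest in liver 2 and Smad4 in liver 1. In liver 4, 0 of the 8 were highest, against 33.3% of expressed genes (15.6% with equal totals), and 5 of the 8 were lowest, against 18.1%. The 5 of 8 and the 18.1% are as deposited, where liver 4 has the largest summed FPKM, and were not recomputed with equal totals. With 4 livers the order of these 8 genes was not tested.

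Genes for ligands of the niche ranged from a mean of 0.605 FPKM (Bmp10) to 9.06 FPKM (Tgfb1). Of 10 ligand genes, 8 were expressed, and Bmp10 and Dll1 had means below 1 FPKM. Tgfb1, which encodes the ligand TGF-beta 1, was at 7.21, 9.81, 8.65 and 10.6 FPKM. Gdf2, which encodes BMP9 of stellate cells, was at 7.18, 10.2, 7.71 and 6.18 FPKM, and the Notch ligand gene Dll4 was at 1.68 FPKM in liver 2, against 0.997 to 1.08 FPKM elsewhere. Csf1, the macrophage growth factor gene, was at 4.08, 3.05, 3.57 and 3.80 FPKM, and its receptor gene Csf1r at 11.6, 16.1, 14.0 and 13.4 FPKM. The ligands had a median deviation of -0.09, 0.17, -0.08 and 0.01 in livers 1 to 4, with liver 2 the highest for 4 of the 8, where 22% of expressed genes were highest. All 8 receptor genes were expressed, with medians of -0.05, 0.09, 0.03 and -0.02. The 8 genes known to act with single members (C3, Hp, Hmox1, Bach1, Adam17, Tcf3, Tcf4 and Tcf12) had medians of -0.03, 0.13, -0.14 and 0.04, and 6 of the 8 were lowest in liver 3, against 31.4% of expressed genes.

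Markers of other cells moved between the same livers, and their part in the members' values was not tested. The 11 pan-macrophage genes, all expressed, had medians of -0.18, 0.23, -0.17 and 0.05, with 10 of 11 above their mean in liver 2 (45.1% of expressed genes). The 8 lipid-associated macrophage genes had medians of 0.11, 0.02, -0.20 and 0.08, and 0 of 8 were above their mean in liver 3 (47% of expressed genes). Of 8 monocyte genes 5 were expressed, with medians of 0.20, 0.16, -0.31 and -0.07, and their summed level was between 17.6 and 28.7 FPKM. The 8 sinusoidal endothelial genes, markers of cells in which Id3 is also known to be expressed, had medians of -0.19, 0.33, -0.05 and 0.05 and a summed level of 65.7 to 88.3 FPKM. Of these 8, 7 were highest in liver 2 (22% of expressed genes) and 6 lowest in liver 1 (20.7% of expressed genes), the exceptions being Clec4g, highest in liver 4, and Stab2 and Pecam1, lowest in liver 3. The 7 stellate genes had medians of 0.07, 0.25, -0.20 and -0.25 and a summed level of 163 to 256 FPKM. The 5 expressed hepatocyte genes had medians of -0.03, -0.20, -0.22 and 0.25, the highest in liver 4, where the members' median was also highest. Apoa1, Ttr, Fabp1 and Cyp2e1 were highest in liver 4, and Cps1 in liver 3. None of these markers other than Alb was at 0 in any of the 4 livers.

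**Figure D4:**
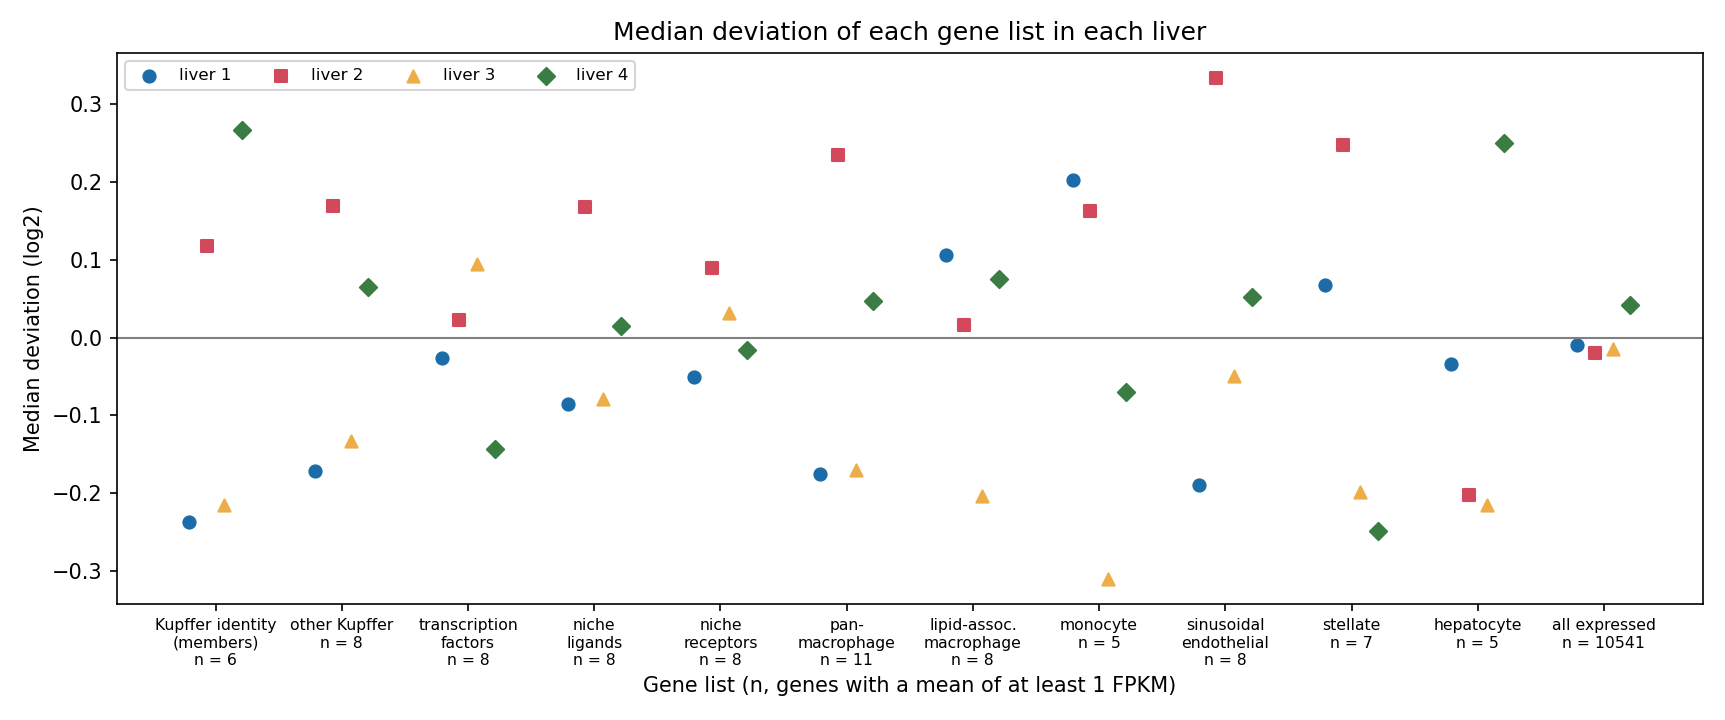
Median deviation of each gene list in each of the 4 livers, on the log2(FPKM + 1) scale relative to each gene's own mean, with n the number of expressed genes. The members are at 0.27 in liver 4 and -0.24 in liver 1, whereas the medians of the pan-macrophage and sinusoidal endothelial lists are highest in liver 2 and that of the 8 transcription factors in liver 3.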

How the data were processed

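Whole-liver RNA of 4 samples of 1 group was sequenced after poly(A) enrichment, per the labels' protocols. The submitters' processing notes name FastQC 0.10.1, Trim Galore 0.6.3, cutadapt, STAR 2.7.6a, Cufflinks 2.2.1 and the build mm10, with no role or order, and the annotation is not given in the sources used here. The deposited table has 1 value per gene and liver, taken to be FPKM from the values and the named Cufflinks; the header gives no unit. Columns were matched to livers through the sample descriptions, and 0 were left over. Deposited starts count from 0, so 1 was added.

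Values were analysed as log2(FPKM + 1), which understates differences of low genes, with Python 3.11.15, numpy 2.4.6 and pandas 2.3.3. Genes averaging 1 FPKM or more are called expressed. Depth was estimated from genes with 1 GENCODE vM21 transcript longer than 800 bases, as the median product of FPKM and length less 200 bases between 25 and 75, taken as the value of 1 fragment. Fragments of a member use its longest protein-coding transcript, and counting error is their Poisson SD. Both are approximate. With 1 group no test between conditions was possible. The members and the 13 other lists (110 symbols in all, each in the table) were chosen with earlier results of these data known. Named genes are the members, list genes that describe a role, and the 5 genes closest to Clec4f and to the members' median. One further gene was left off the lists and is not reported here. Alternatives were other scalings, pseudocounts, filters and each liver left out. The promoter letter strings were chosen with the members' values known, and every string searched is reported. The deviation and Dixon functions were tested on simulated data.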

Additional observations from a re-analysis of the deposited data

Results flagged for a closer look

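No member had a liver set apart from the others. Of the 93 expressed genes on the lists, 7 did by Dixon's ratio for 4 samples, beside 5.46% of all expressed genes, and about 1 in 20 is flagged by chance. Aif1, a macrophage gene, was at 1.96 FPKM in liver 3, against 5.81 to 6.99 FPKM elsewhere. Ly6c2, a monocyte gene, was at 1.13 FPKM in liver 3, against 2.56 to 2.68 FPKM elsewhere, and Hmox1 was at 8.503 FPKM in liver 3, against 12.1 to 12.5 FPKM. Mrc1, the mannose receptor gene, was at 7.08 FPKM in liver 2, against 4.33 to 4.51 FPKM elsewhere. The Notch pathway genes Dll4 and Rbpj were at 1.68 and 3.82 FPKM in liver 2, against at most 1.08 and 2.80 FPKM elsewhere. Apoa1 was at 15343 FPKM in liver 4, against 11922 to 12320 FPKM elsewhere.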

How the results depend on the processing

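The median deviation of the members kept its sign in each liver under every pseudocount, filter, scaling and left-out liver tried. With a liver left out it was between -0.24 and -0.11 in liver 1, 0.03 and 0.21 in liver 2, -0.25 and -0.15 in liver 3, and 0.23 and 0.31 in liver 4. The number of neighbouring members whose ranges did not overlap was between 3 and 5 with a liver left out, against 3 with all, since fewer samples give narrower ranges. Leaving out Id3, an alternative chosen after seeing the data, lowered the summed level to 58.9, 77.5, 53.2 and 91.2 FPKM in livers 1 to 4 and its mean ratio to the pan-macrophage sum from 0.298 to 0.181, by removing 1 of the most abundant members. Of 242 recomputed values 230 kept within the spread between livers, or within 1.5-fold where no spread applies, and 12 moved. Many of the 230 could not have moved, so the count is no measure of stability. The summed level of a liver is unchanged when another is left out. Leaving out 1 of 4 livers cannot shift a mean by as much as the SD between them. A change of sign was looked for in the median deviations only, where 0 were found. No paired analysis was possible because the livers form 1 group. Depth limits Timd4, Cd163, Marco and Spic, whose values rest on fewer than 41 fragments per liver.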

Other observations

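Of 6 lymphocyte genes, Cd79a and Nkg7 were expressed, and the summed level of the 6 was between 3.42 and 4.14 FPKM. Of 4 neutrophil genes, S100a8 and S100a9 were expressed; S100a8 was at 4.22, 7.79, 3.20 and 5.19 FPKM in livers 1 to 4 and S100a9 at 5.03, 7.93, 6.37 and 2.42 FPKM, both highest in liver 2. Retnlg was listed at 0 in liver 4 and at 0.722, 2.01 and 0.818 FPKM in livers 1 to 3.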
